A study of Mus musculus with 5 samples.

Results

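Genes of the neutrophil-attracting chemokine system were followed across inflamed and uninflamed mouse skin, 7 of the 31053 genes in the deposited count tables. They were chosen by symbol and are the CXC chemokine genes Cxcl1, Cxcl2, Cxcl3 and Cxcl5, the chemokine receptor gene Cxcr2, and the genes of granulocyte colony-stimulating factor, Csf3, and of its receptor, Csf3r. All 7 were present in the tables. RNA had been counted in single cells with a 3′ droplet kit, and each of the 5 groups was a single library, so every interval given here covers counting error only and no difference between conditions was tested. The untreated dermis and untreated epidermis libraries came from 10-week wild type C57BL/6 mice. The imiquimod dermis library came from 10-week wild type C57BL/6 mice whose ears had received imiquimod, an agonist of Toll-like receptor 7 that gives a psoriasis-like inflammation, for 5 days. Both remaining libraries came from mice labelled K5. Pp6fl/fl on the same background. K5 is the usual name of the keratin 5 promoter, which is active in basal keratinocytes, and Pp6 that of protein phosphatase 6. One of these was the epidermis of 10-week mice without lesions, called nonlesional epidermis here, and the other the whole skin of 18-week mice with psoriasis-like lesions, called lesional skin. Lesional skin thus differed from nonlesional epidermis in age and in tissue as well as in the lesions, and these cannot be told apart. The number of mice behind each library and the body site of the untreated and the mutant skin were not given in the sources used here.

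Cxcl1, Cxcl2, Cxcl3 and Cxcl5 carry the Glu-Leu-Arg motif ahead of their paired cysteines and attract neutrophils through Cxcr2, a G protein-coupled receptor. Interleukin 17, interleukin 1 and tumour necrosis factor raise their transcription through NF-kappaB and also lengthen the life of their mRNAs, which carry AU-rich elements in the 3′ untranslated region. Csf3 drives the production and release of neutrophils from bone marrow through Csf3r. In psoriasis-like skin, neutrophils gather in the dermis and in epidermal microabscesses.

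The 4 chemokine genes lie in 1 cluster of 7 CXC chemokine genes on mouse chromosome 5 (GRCm38), from 90759360 to 90905938, all on the forward strand. The other genes in it are Ppbp, Pf4 and Cxcl15. Cxcr2 lies on chromosome 1 (74153989 to 74161246), Csf3r on chromosome 4 (126024550 to 126044440) and Csf3 on chromosome 11 (98701263 to 98703629), each on the forward strand. The proximal promoters of Cxcl1, Cxcl2 and Cxcl3 share a pair of motifs, shown because the inducing cytokines named above act through NF-kappaB. The windows come from RefSeq (GRCm38.p6, forward strand) and cover chr5:90891159-90891221 for Cxcl1, chr5:90903787-90903852 for Cxcl2 and chr5:90786013-90786082 for Cxcl3. Capitals mark GGGAATTTCC, an NF-kappaB type site, and ATAAAAGG, a TATA type box.
Cxcl1: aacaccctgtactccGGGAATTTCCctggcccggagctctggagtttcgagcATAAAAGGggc
Cxcl2: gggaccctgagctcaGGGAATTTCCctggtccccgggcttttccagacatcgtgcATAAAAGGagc
Cxcl3: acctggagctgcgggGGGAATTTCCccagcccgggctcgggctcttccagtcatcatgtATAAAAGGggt
The exact GGGAATTTCC, searched on both strands, occurred in 29 of 32851 mouse promoters of the same length (0.0883%), and ATAAAAGG on the forward strand before the start occurred in 340 (1.03%). Only these 3 promoters held both (0.00913%). The motifs were read from runs that the 3 windows share, so this count describes the sequences and is no independent evidence. Neither motif matched exactly in the Cxcr2 or Csf3r windows, and the table held no window for Cxcl5 or Csf3. A looser NF-kappaB consensus, GGGRNYYYCC (R is A or G, Y is C or T, N is any base), occurred in 1907 promoters (5.805%). The Csf3r window held 1 such site and the Cxcr2 window 0.

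The 3′ untranslated regions differed in the pentamer ATTTA, the core of AU-rich elements. There were 11 copies in the 734 bases of Cxcl2, 7 in the 592 bases of Cxcl1, 6 in the 669 bases of Csf3, and 5 each in Cxcl3 (645 bases) and Cxcl5 (1111 bases). Both receptors had few, with 2 copies in the 1818 bases of Cxcr2 and 0 in the 602 bases of Csf3r. Of mouse genes with a 3′ untranslated region at least as long, 0.0811% held as many copies in their first bases as Cxcl2, 0.431% as Cxcl1, 1.36% as Csf3, 2.68% as Cxcl3, 12.4% as Cxcl5 and 73.0% as Cxcr2. The densest stretches of 30 bases are shown with the pentamers in capitals (GRCm38, forward strand, at chr5:90892602-90892631, chr5:90905327-90905356 and chr11:98702984-98703013).
Cxcl1: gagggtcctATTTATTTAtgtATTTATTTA
Cxcl2: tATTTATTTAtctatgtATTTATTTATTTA
Csf3: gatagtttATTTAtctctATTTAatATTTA

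After filtering, 11612 cells of 13288 barcodes were kept, from 519 in untreated dermis to 4792 in imiquimod dermis, with a median of 3407.5 to 8276.5 unique molecular identifiers (UMIs) per cell in a library. A total of 41 barcode sequences occurred in more than 1 library. The cells formed 33 clusters that were assigned to 14 classes by marker genes, with all members kept out of the clustering. The keratinocyte class included a hair follicle cluster of 89 lesional cells and a small sebaceous cluster. Keratinocytes were absent from imiquimod dermis and numbered 10 in untreated dermis, and fibroblasts numbered 7 in untreated and 29 in nonlesional epidermis, as a check of the labelled tissues. Neutrophils, all in 1 cluster led by S100a8, S100a9 and Retnlg, numbered 707 of 4792 cells in imiquimod dermis (14.8%, exact 95% interval 13.8% to 15.8%) and 73 of 2596 in lesional skin (2.81%). No neutrophil was found in untreated dermis (0 of 519 cells, which allows a share of up to 0.578%), untreated epidermis (0 of 898, up to 0.334%) or nonlesional epidermis (0 of 2807, up to 0.107%). Lesional skin stood apart in that it mixed sexes: 741 cells held Xist but no Y-linked UMI, 1085 held Y-linked UMIs but no Xist, 38 held both and 732 neither, whereas the other libraries held no Xist-only cell apart from 1 in nonlesional epidermis. Macrophages and fibroblasts fell into different clusters in different libraries, as given beside the comparisons.

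Levels are given as CPM, the UMIs of a gene per 1000000 UMIs of its cell class in a library, with an exact Poisson 95% interval. The 3′ kit tags 1 end of each molecule, so levels were compared within a gene and not between genes. In whole libraries, Cxcl2 was at 654 CPM in untreated dermis, 2199 in imiquimod dermis, 13.0 in untreated epidermis, 67.5 in nonlesional epidermis and 601 in lesional skin. Imiquimod dermis was highest for Cxcl2, and both epidermal libraries were far below the rest. Cxcl1 was at 226, 63.3, 15.6, 33.6 and 280 CPM in the same order, so that here imiquimod dermis lay below untreated dermis. Cxcl3 was at 47.1, 64.0 and 63.0 CPM in untreated dermis, imiquimod dermis and lesional skin, with 0 UMIs in untreated epidermis and 1 in nonlesional epidermis. Cxcl5 was found in imiquimod dermis (4500 UMIs, 117 CPM) and in lesional skin (2045 UMIs, 65.4 CPM) and had 0 UMIs in the other 3 libraries, which allows up to 1.02 CPM in untreated dermis, 0.778 in untreated epidermis and 0.144 in nonlesional epidermis. Csf3 was at 80.3, 15.3 and 52.4 CPM in untreated dermis, imiquimod dermis and lesional skin and had 0 UMIs in both epidermal libraries. Cxcr2 was at 37.1 CPM in imiquimod dermis and 4.70 in lesional skin, against 1 UMI in untreated dermis and 0 in epidermis. Csf3r was at 63.4 CPM in imiquimod dermis, 11.3 in lesional skin and 4.41 in untreated dermis, with 0 in epidermis. Both receptors and Cxcl5 were thus highest in the 2 inflamed libraries, while Cxcl1, Cxcl2, Cxcl3 and Csf3 were also well detected in untreated dermis. A library level depends on the mix of cells captured, so the sources were examined class by class.

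**Figure D1:**
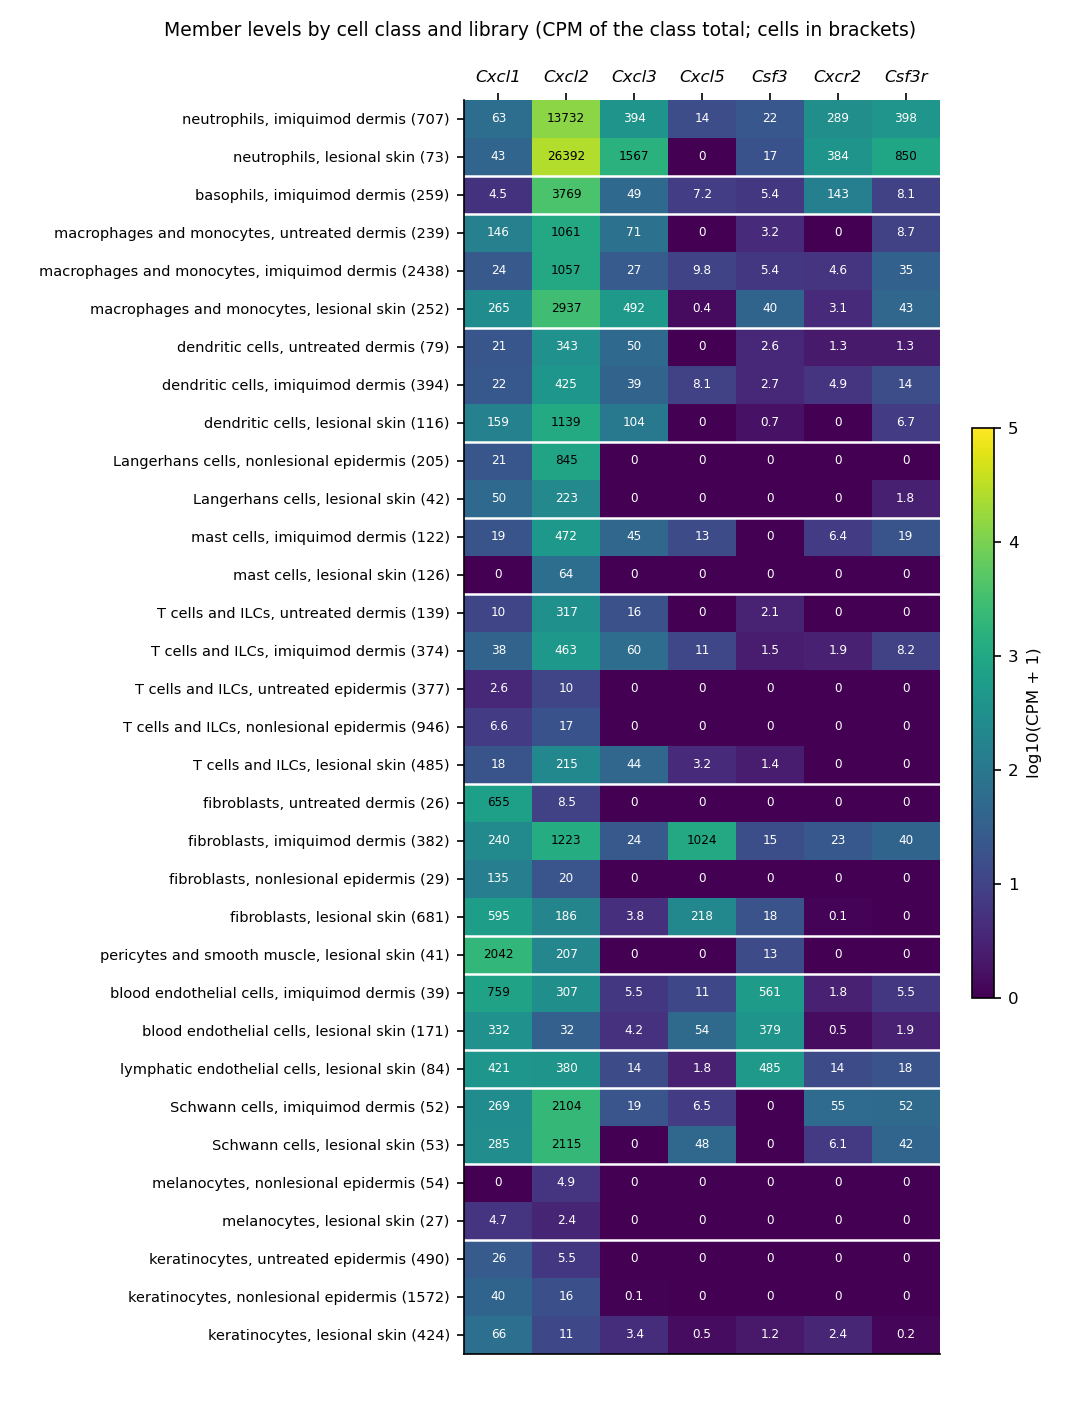
Level of the 7 genes in each class of at least 20 cells in each library, as log10 of CPM plus 1 (colour) with the CPM printed in each cell. Cxcr2 and Csf3r are highest in the neutrophil rows, Cxcl5 in the fibroblast rows of imiquimod dermis and lesional skin, and Csf3 in the endothelial rows.

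The main source differed between genes. The plot of UMI shares by class gives these for the inflamed libraries. Neutrophils, with 9.1% of all UMIs of imiquimod dermis, gave 70.9% of its Cxcr2 UMIs (exact 95% interval 68.5% to 73.3%), 57.1% of Csf3r (55.1% to 59.0%), 56.8% of Cxcl2 (56.5% to 57.2%) and 56.1% of Cxcl3 (54.1% to 58.0%), but 9.06% of Cxcl1 and 13.0% of Csf3. Fibroblasts gave 92.3% of the Cxcl5 UMIs there (91.5% to 93.1%) and 40.2% of those of Cxcl1 (38.2% to 42.2%), and blood endothelial cells, with 1.42% of all UMIs, gave 52.1% of Csf3 (48.0% to 56.3%). The same classes led for Cxcl5, Cxcl1 and the receptors in lesional skin. There fibroblasts gave 93.3% of Cxcl5 UMIs (92.1% to 94.3%) and 59.4% of Cxcl1 (58.4% to 60.4%), and neutrophils, with 0.748% of all UMIs, gave 61.2% of Cxcr2 (52.8% to 69.1%) and 56.4% of Csf3r (51.0% to 61.6%). For Cxcl2 and Cxcl3 the first source in lesional skin was the macrophage and monocyte class, with 40.4% and 64.6%, followed by neutrophils with 32.9% and 18.6%. Csf3 there came from blood endothelium (49.1%) and lymphatic endothelium (32.4%).

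**Figure D2:**
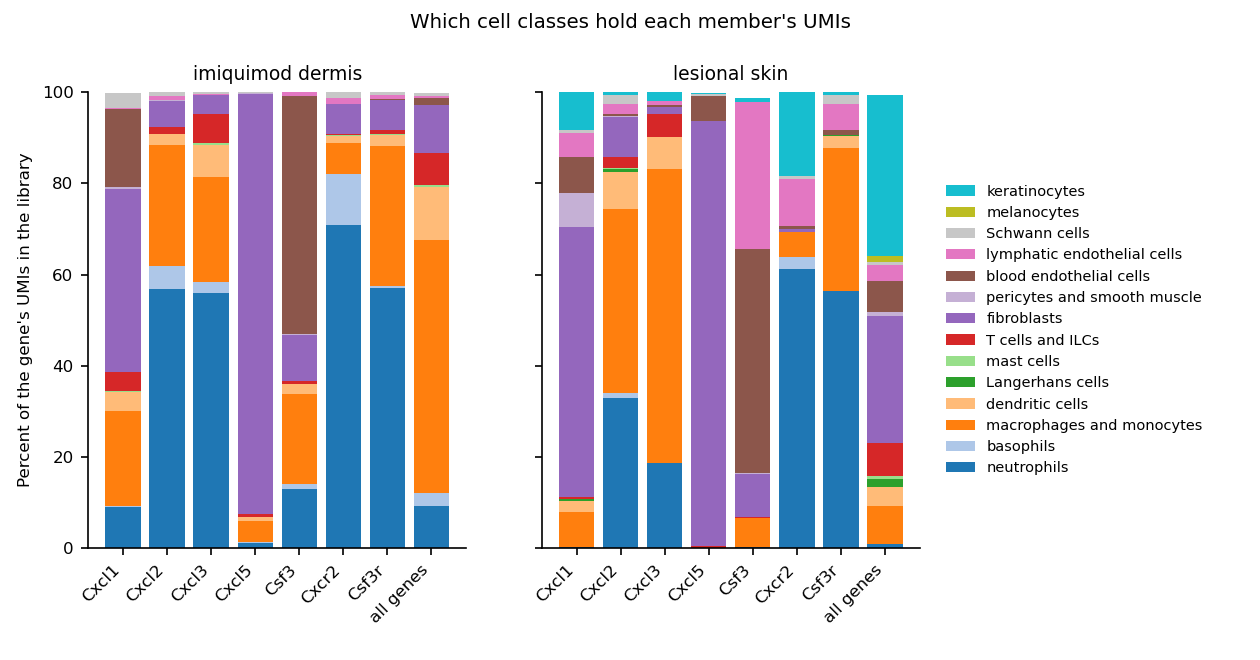
Percent of the UMIs of each gene, and of all genes, that came from each cell class in imiquimod dermis and in lesional skin (stacked bars, 1 library each). Neutrophils make up 70.9% of the Cxcr2 bar of imiquimod dermis against 9.1% of the bar for all genes.

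Cxcl1, one of the main neutrophil attractants made by stromal and epithelial cells, was highest in cells of vessel walls and in fibroblasts. In fibroblasts it was at 655 CPM in untreated dermis (556 to 766, 26 cells), 240 in imiquimod dermis (225 to 256), 595 in lesional skin (579 to 611) and 135 in nonlesional epidermis (88.9 to 196, 29 cells). It was found in 29.1% of fibroblasts of imiquimod dermis and 32.2% of lesional skin, against 5.88% and 4.33% of T cells and innate lymphoid cells (referred to as T cells below), which had a median of 5292.5 and 4365 UMIs per cell against 8763 and 10904 in fibroblasts. Blood endothelial cells held 759 CPM in imiquimod dermis (688 to 836) and 332 in lesional skin (307 to 357), where 47.4% of them had a UMI. The first of these values rests in part on 1 cell that held 186 of 413 UMIs, and without it the level was 445. Lesional pericytes held 2042 CPM (1887 to 2207), of which 1 of 41 cells gave 370 of 640 UMIs, and 916 without it. In untreated dermis the 6 blood endothelial cells held 3296 CPM, and 1 pericyte alone held 134 of the 668 Cxcl1 UMIs of the library.

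Keratinocytes were the main source of Cxcl1 in epidermis, with 93.3% of its UMIs in untreated (83.8% to 98.2%) and 89.1% in nonlesional epidermis (86.6% to 91.3%). Their level was 25.7 CPM in untreated epidermis (19.4 to 33.4), 39.5 in nonlesional epidermis (36.5 to 42.8) and 65.8 in lesional skin (61.1 to 70.8), and the 3 intervals did not overlap. The share of keratinocytes with a Cxcl1 UMI was 5.51%, 14.1% and 26.4%, and 1.54%, 4.81% and 9.20% once every cell had been thinned to 2000 UMIs, with the same order of the 3 libraries. Within keratinocytes, the follicle cluster held 36.0 CPM in lesional skin. The order of the 3 libraries did not hold in every cluster. In cluster 8 it did, with 24.2 CPM in untreated epidermis, 44.4 in nonlesional epidermis and 89.9 in lesional skin. Cluster 2 held 40.8 CPM in untreated (27.3 to 58.5) and 34.5 in nonlesional epidermis (30.8 to 38.5). The cycling cluster 19 held 98.7 CPM in nonlesional epidermis (83.7 to 116) and 83.8 in lesional skin (70.5 to 98.9). Keratinocytes gave 8.31% of the lesional Cxcl1 UMIs (7.74% to 8.91%) while holding 35.4% of all UMIs.

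Cxcl2, an early response gene of myeloid cells, had its highest level in neutrophils themselves, the cells it attracts. It stood at 13732 CPM in imiquimod dermis (13609 to 13855) and at 26392 in lesional skin (25738 to 27059), and 97.9% and 91.8% of neutrophils had a UMI. The median neutrophil held only 3636 and 3079 UMIs in all. Basophils of imiquimod dermis followed with 3769 CPM (3656 to 3885), in 77.2% of 259 cells, of which 1 held 807 of 4196 UMIs. Macrophages and monocytes held 1061 CPM in untreated dermis (1005 to 1119), 1057 in imiquimod dermis (1044 to 1071) and 2937 in lesional skin (2871 to 3004). The first pair of these intervals overlapped and lesional skin lay above both. The share of macrophages with a UMI was 42.3%, 87.0% and 46.8%, or 38.5%, 57.2% and 34.7% at 2000 UMIs per cell, so a larger share of macrophages held Cxcl2 in imiquimod than in untreated dermis at nearly the same class level. No class of at least 18 cells in imiquimod dermis held less than 307 CPM of Cxcl2, and 74.3% of T cells there had a UMI, against 26.6% in untreated dermis and 12.6% in lesional skin. Of dendritic cells 89.1% had a UMI in imiquimod dermis, against 25.3% in untreated dermis and 28.4% in lesional skin. The larger share with imiquimod was thus not particular to macrophages. In droplet libraries RNA free in the suspension can give such a base level. How much of the values of T cells, dendritic cells and macrophages comes from it was not tested.

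In nonlesional epidermis the source of Cxcl2 was the Langerhans cell, the dendritic cell of the epidermis, with 78.2% of UMIs (76.0% to 80.3%) from 6.24% of all UMIs. Its level there was 845 CPM (796 to 897), in 29.3% of 205 cells. In lesional skin the 42 Langerhans cells held 223 CPM (186 to 265), of which 1 cell gave 101 of 126 UMIs, and 45.7 without that cell. Keratinocytes held 5.50 CPM of Cxcl2 in untreated epidermis (2.84 to 9.61), 15.5 in nonlesional epidermis (13.7 to 17.6) and 11.4 in lesional skin (9.49 to 13.6). They stayed far below the myeloid classes in each library.

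Cxcl3, the neighbour of Cxcl2 in sequence, had the same leading classes. Neutrophils held 394 CPM in imiquimod dermis (374 to 415, in 33.8% of cells) and 1567 in lesional skin (1411 to 1736, in 42.5%). All 239 neutrophils with a Cxcl3 UMI in imiquimod dermis, and all 31 in lesional skin, also had one of Cxcl2. Macrophages held 71.2 CPM in untreated dermis (57.2 to 87.5), 26.7 in imiquimod dermis (24.5 to 28.9) and 492 in lesional skin (465 to 520). A few cells weighed heavily: 1 macrophage gave 61 of 90 UMIs in untreated dermis, and 1 gave 359 of 1273 in lesional skin, without which the levels were 23.3 and 355. Transcripts of Cxcl2 and Cxcl3 share a run of 110 identical bases, so some reads may not be told apart, but the longest run within their last 500 bases, where 3′ tags fall, was 16.

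Cxcl5 was a fibroblast gene in these libraries, and a gene of few fibroblasts. It stood at 1024 CPM in fibroblasts of imiquimod dermis (993 to 1056) and 218 in those of lesional skin (208 to 228), with 0 UMIs in the 26 fibroblasts of untreated dermis and the 29 of nonlesional epidermis. A UMI was found in 28.8% and 8.66% of fibroblasts, against 7.75% and 0.619% of T cells. The tenth of fibroblasts with most Cxcl5 held 91.9% of its UMIs in imiquimod dermis and 100% in lesional skin, with up to 380 and 414 UMIs in a cell. In the other classes of imiquimod dermis with at least 18 cells and a UMI, the level was 6.12 to 14.0 CPM and no cell held more than 3. Of its 5 pericytes, 1 held 3 UMIs (111 CPM). Within fibroblasts of imiquimod dermis, cluster 27 held 1521 CPM, cluster 13 (317 cells, led by Dcn, Saa3 and Timp1) 1005 and cluster 7 (20 cells) 230. In lesional skin cluster 7 (559 cells, led by Dcn, Clec3b and Pi16) held 1905 of the 1907 fibroblast UMIs of Cxcl5, at 243 CPM.

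Csf3 was an endothelial gene. Blood endothelial cells held 561 CPM in imiquimod dermis (500 to 627, in 46.2% of 39 cells) and 379 in lesional skin (353 to 406, in 29.2% of 171 cells), against 1.07% and 0.619% of T cells with a UMI. The 6 blood endothelial cells of untreated dermis held 229 of the 237 Csf3 UMIs of that library, or 4933 CPM, too few cells for a comparison. Lesional lymphatic endothelium held 485 CPM (445 to 528) from 12 of 84 cells, of which 1 gave 152 of 530 UMIs. In imiquimod dermis the 18 lymphatic endothelial cells held 5 UMIs. Outside endothelium, macrophages held 3.16, 5.44 and 39.8 CPM in untreated dermis, imiquimod dermis and lesional skin. The last value came mostly from 1 cell with 83 of 103 UMIs and was 7.76 without it. Fibroblasts held 14.8 CPM in imiquimod dermis and 17.7 in lesional skin, the latter with 82 of 155 UMIs in 1 cell. Csf3 and Cxcl1 were often found in the same blood endothelial cells: 80.0% of the 15 cells with Cxcl1 in imiquimod dermis had Csf3 against 25.0% of the rest, and 44.4% against 15.6% in lesional skin. The cells with Cxcl1 were also deeper, with a median of 24993 against 2633 UMIs and 14652 against 7599.

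Cxcr2, the receptor of the 4 chemokines, was found in neutrophils and in a second class, basophils. Neutrophils held 289 CPM in imiquimod dermis (272 to 308), where 441 of 707 cells had a UMI (62.4%), and 384 in lesional skin (309 to 472), in 61.6%. Basophils of imiquimod dermis held 143 CPM (121 to 167), with a UMI in 107 of 259 cells (41.3%) and at most 4 in a cell. T cells of the same library, which should lack the gene, had a UMI in 0.802% of cells at a median of 5292.5 UMIs per cell, against 4225 in basophils. Basophils gave 11.2% of all Cxcr2 UMIs of imiquimod dermis (9.58% to 12.9%) from 2.9% of all UMIs. Macrophages had a UMI in 2.67% of cells in imiquimod dermis and 2.38% in lesional skin (4.60 and 3.09 CPM). Lesional keratinocytes held 27 UMIs (2.44 CPM, median 21291 UMIs per cell) and a UMI in 0.242% of cells at 2000 UMIs. Most neutrophils with the receptor also held its ligand: 430 of 707 in imiquimod dermis and 42 of 73 in lesional skin had UMIs of both Cxcr2 and Cxcl2. Among basophils the number with both was 84 of 259. Cxcl2 was about as frequent in cells without a Cxcr2 UMI. In imiquimod dermis it was in 97.5% of neutrophils with Cxcr2 and 98.5% of the rest, and in lesional skin in 93.3% and 89.3%. In basophils these shares were 78.5% and 76.3%.

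Csf3r was highest in neutrophils, at 398 CPM in imiquimod dermis (377 to 419, in 74.4% of cells) and 850 in lesional skin (736 to 976, in 87.7%). It was also present in macrophages and monocytes, at 8.70 CPM in untreated dermis (4.34 to 15.6), 35.1 in imiquimod dermis (32.6 to 37.7) and 42.9 in lesional skin (35.3 to 51.7). The share of macrophages with a UMI was 4.18%, 24.6% and 31.7%, or 0.55%, 7.95% and 10.4% at 2000 UMIs per cell, against 5.61% of T cells in imiquimod dermis before thinning and 1.97% after it. Basophils differed from neutrophils here, with 8.08 CPM and a UMI in 8 of 259 cells, and only 1 basophil held both receptors, whereas 363 of 707 neutrophils did.

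Genes of neutrophils were also seen in other classes of imiquimod dermis. S100a8 and S100a9 together stood at 137085 CPM in neutrophils, and at 13157 in fibroblasts (9.6% of the neutrophil level), 17013 in Schwann cells (12.4%), 36932 in lymphatic endothelium (26.9%), 2712 in macrophages (1.98%), 2640 in basophils (1.93%) and 1577 in blood endothelium. If all of that S100 RNA were neutrophil RNA, it would bring the other neutrophil genes along in proportion. Fibroblasts held 0.928 times the Cxcl2, 0.817 times the Cxcr2 and 1.05 times the Csf3r that this proportion gives. Basophils held 25.6 times the Cxcr2 and 14.3 times the Cxcl2 that it gives, but 1.06 times the Csf3r. Macrophages held 3.89 times the Cxcl2 and 4.46 times the Csf3r, but 0.804 times the Cxcr2. Without the 53 of 382 fibroblasts that had over 1% of their UMIs from S100a8 and S100a9, fibroblast Cxcl2 was 375 CPM instead of 1223, Cxcr2 2.71 instead of 22.7 and Csf3r 9.33 instead of 40.2, while Cxcl1 was 278 instead of 240 and Cxcl5 1246 instead of 1024. The values of basophils and macrophages moved little when such cells were left out (Cxcr2 in basophils 141 CPM, Cxcl2 in macrophages 1027).

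**Figure D3:**
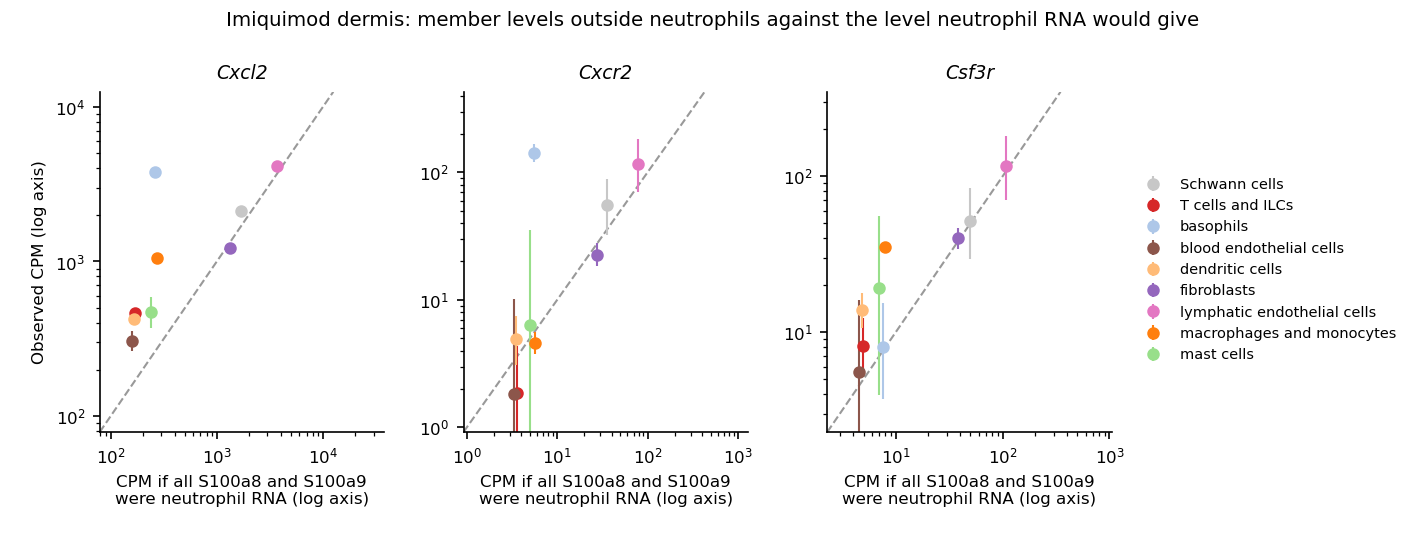
Observed level of Cxcl2, Cxcr2 and Csf3r in the classes of imiquimod dermis (vertical, CPM, log axis, with exact Poisson 95% intervals) against the level if all S100a8 and S100a9 of the class were neutrophil RNA (horizontal, CPM, log axis). Fibroblasts lie close to the dashed line of equality for all 3 genes, and basophils lie 25.6 times above it for Cxcr2.

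For comparisons between libraries, a gene was taken as measured if the pair of libraries held 10 or more of its UMIs and either reached 10 CPM, and as called where the 95% counting interval of the ratio lay wholly beyond 1.5-fold. This is a rule of size, not a test. A class needed 20 cells in both libraries to be compared. Several comparisons share a library (lesional skin in 3, untreated dermis and imiquimod dermis in 2 each, nonlesional epidermis in 2) and are given side by side only.

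In dermis, imiquimod went with lower Cxcl1 in macrophages and fibroblasts, higher Csf3r in macrophages, and Cxcl5 in fibroblasts where none had been detected. In macrophages and monocytes, Cxcl1 was 23.7 CPM against 146 (ratio 0.162, 0.137 to 0.193), Cxcl3 0.375 times (0.299 to 0.473), Cxcl2 0.997 times (0.943 to 1.05) and Csf3r 4.03 times the untreated level (2.24 to 8.11). Of 4 measured members 1 was called higher and 2 lower, where 6.5% of 7343 genes were called higher and 19.0% lower. The lower Cxcl3 rested on 1 untreated cell: without the highest cell of each library the ratio was 1.09 and was not called. Early response genes, which rise when tissue is digested, were lower with imiquimod in macrophages too. Atf3 was 212 CPM against 553, Egr1 67.1 against 241 and Fos 765 against 889, and the part of handling in the lower Cxcl1 was not tested.

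The macrophages of these libraries were not the same populations. In untreated dermis 221 of 239 lay in cluster 5, which is led by Pf4, C1qc and Mrc1, genes of resident macrophages, while in imiquimod dermis 1017 lay in cluster 0 (Lyz2, Chil3 and Plac8, genes of monocytes), 1043 in cluster 1 (Aif1, Lyz2 and Clec4a2) and 270 in cluster 5. Within cluster 5, Cxcl1 was 0.092 times (0.0644 to 0.129), Cxcl2 0.454 times (0.421 to 0.490) and Cxcl3 0.108 times the untreated level (0.0657 to 0.172), and Csf3r 2.91 times (1.5 to 6.32). For Cxcl3, 1 untreated cell gave 61 of the 85 UMIs of cluster 5, and without the highest cell of each library the ratio was 0.331 (0.175 to 0.620) and was still called. Cluster 0 held 1990 CPM of Cxcl2 against 560 in cluster 1 and 488 in cluster 5. The equal Cxcl2 of the whole class therefore joined lower and higher clusters.

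**Figure D4:**
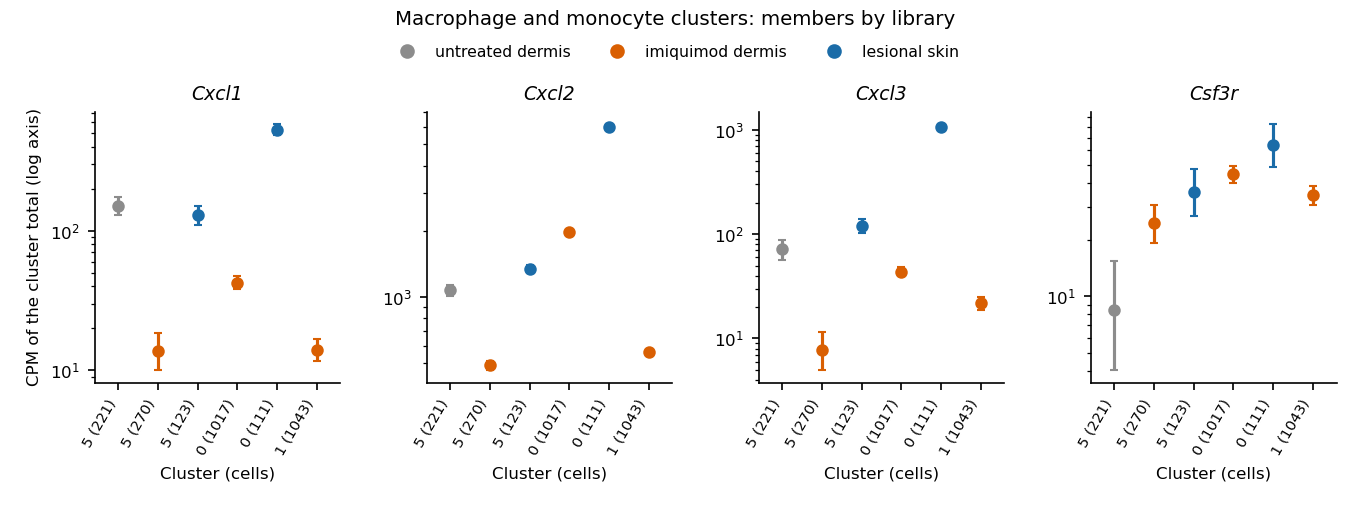
Level of Cxcl1, Cxcl2, Cxcl3 and Csf3r (CPM, log axis, exact Poisson 95% intervals) in macrophage and monocyte clusters 5, 0 and 1 of untreated dermis, imiquimod dermis and lesional skin. In cluster 5, Cxcl2 is 1074 CPM in untreated dermis and 488 in imiquimod dermis, and cluster 0 of lesional skin reaches 6004.

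In fibroblasts, with only 26 cells in untreated dermis, Cxcl1 was 0.367 times the untreated level (0.309 to 0.438). Early response genes were lower in these fibroblasts as well, with Atf3 at 152 CPM against 1310, Nfkbia at 748 against 2155 and Fos at 643 against 1272. The part of handling in the lower Cxcl1 was not tested. Cxcl5 was at least 80.8-fold higher, counted against a floor of 3 UMIs. Cxcl2 (145 times, 40.1 to 1196, against 2 UMIs), Cxcl3 (at least 1.93-fold) and Csf3r (at least 3.17-fold) were also called higher, and the S100-rich cells described above touch these 3 values. In all, 4 of 7 members were called higher and 1 lower, where 4.53% of 8309 genes were called higher and 10.4% lower. The fibroblasts lay in different clusters, 317 of 382 in cluster 13 in imiquimod dermis against 12 of 26 in untreated dermis, so no cluster could be compared on its own. In T cells, Cxcl1 (3.73 times, 1.55 to 11.7) and Cxcl3 (3.64 times, 1.81 to 8.59) were called higher and Cxcl2 was not (1.46 times, 1.23 to 1.74), which makes 2 of 4 where 3.63% of genes were called higher. Without the highest cell of each library Cxcl1 was no longer called in T cells (3.41 times, 1.28 to 12.8), and Cxcl3 was 6.76 times. In dendritic cells Csf3r was called higher (10.6 times, 1.84 to 426, 62 UMIs against 1), which makes 1 of 4 where 6.53% of genes were called higher. Cxcl1, Cxcl2 and Cxcl3 in dendritic cells were 1.07, 1.24 and 0.78 times the untreated level and were not called. There 1 cell held 121 of 173 Cxcl3 UMIs with imiquimod and 1 held 32 of 38 in untreated dermis. Without the highest cells Cxcl3 was 1.47 times (0.633 to 4.19), and Cxcl2 was 1.80 times (1.53 to 2.12) and was called.

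In epidermis without lesions, the mutant library had the higher value of both measured chemokines in keratinocytes, 1 of them past the rule. Cxcl2 was 2.83 times the untreated level (1.59 to 5.54) and was called, and Cxcl1 was 1.54 times (1.17 to 2.06) and was not, which makes 1 of 2 where 3.27% of 7769 genes were called higher. Without the highest cell of each library Cxcl2 was 5.98 times and was called. The keratinocytes lay mostly in different clusters, cluster 12 in untreated epidermis (322 of 490 cells) and clusters 2 and 8 in nonlesional epidermis (863 and 336 of 1572). Within cluster 8 the ratios were 4.73 for Cxcl2 (1.24 to 40.1, against 2 UMIs) and 1.83 for Cxcl1 (1.06 to 3.45), and neither was called. Cluster 2, with 49 untreated cells, did not have the higher values in the mutant library. Cxcl1 there was 34.5 CPM in nonlesional epidermis (30.8 to 38.5) and 40.8 in untreated epidermis (27.3 to 58.5). Cxcl2 there was 12.3 CPM (10.2 to 14.9) and 14.1 (6.74 to 25.8). Clusters 12 and 18 held 8 UMIs or fewer of either gene in each library. In T cells Cxcl2 was the only member measured and was not called (1.63 times, 0.919 to 3.04), where 5.45% of genes were called in either direction. Without the highest cell of each library it was 12.3 times (3.23 to 104) and was called, with 2 untreated UMIs left. Ppp6c, the catalytic subunit gene of protein phosphatase 6, stood in keratinocytes at 80.2 CPM in untreated epidermis (68.8 to 93.1), 72.0 in nonlesional epidermis (67.8 to 76.3) and 51.4 in lesional skin (47.3 to 55.8). The labels do not say which exons were removed, and a 3′ tag need not fall in them, so Ppp6c could not serve as a check of the genotype.

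Lesional skin against nonlesional epidermis showed higher chemokine levels in fibroblasts and T cells but not in keratinocytes by the rule used. In keratinocytes Cxcl1 was 1.66 times (1.49 to 1.85) and Cxcl2 0.732 times the nonlesional level (0.586 to 0.912), so 0 of 2 members were called, where 38.9% of 8581 genes were called in either direction. Keratinocyte Cxcl3 did not reach 10 CPM and was not counted as measured. Without the highest cells it held 21 lesional UMIs (1.91 CPM) against 0, with an interval wholly beyond 1.5-fold. Within cluster 8, which both libraries share, Cxcl1 was 2.02 times (1.66 to 2.48) and was called. The cycling cluster 19, shared too (34 lesional and 93 nonlesional cells), did not have the higher value in lesional skin. Cxcl1 there was 83.8 CPM in lesional skin (70.5 to 98.9) and 98.7 in nonlesional epidermis (83.7 to 116). In T cells Cxcl1 (2.81 times, 1.63 to 4.95), Cxcl2 (12.8 times, 9.71 to 17.2) and Cxcl3 (at least 48.7-fold) were all called higher, where 17.6% of genes were. Without the highest cell of each library Cxcl1 was no longer called (2.51 times, 1.42 to 4.54). Hspa1a, a heat shock gene that rises when cells are handled, stood at 14648 CPM in lesional and 2087 in nonlesional T cells. The early response genes were split. Fos (527 against 1627 CPM) and Atf3 (273 against 484) were lower in lesional T cells, while Nfkbia (1522 against 560), Jun, Egr1 and Zfp36 were higher. The part of handling in these differences was not tested. These T cells lay in other clusters, in cluster 3 in nonlesional epidermis (875 cells) and in clusters 11 and 9 in lesional skin (295 and 181). In fibroblasts Cxcl1 (4.41 times, 3.03 to 6.70), Cxcl2 (9.31 times, 3.63 to 34.2) and Cxcl5 (at least 14.5-fold) were called higher, 3 of 4 measured members where 7.58% of genes were, against only 29 nonlesional fibroblasts. Of these 28 lay in cluster 27, which held 4 lesional cells, while 559 lesional fibroblasts lay in cluster 7. Fos in fibroblasts was 749 CPM in lesional skin and 5832 in nonlesional epidermis, while Hspa1a was 7116 and 3148. The part of handling was not tested. Without the highest cells Cxcl1 was 7.02 times. In Langerhans cells the direction was the other way, with Cxcl2 at 0.264 times the nonlesional level (0.218 to 0.317), where 5.11% of genes were called lower, and at 0.0686 times without the highest cells. Several early response genes were also lower in these cells, with Fos at 882 CPM against 3503, Atf3 at 500 against 1612 and Nfkbia at 131 against 1234. Egr1 and Zfp36 were lower too, but Jun (2914 against 2414) and Hspa1a (14378 against 8287) were higher. The part of handling was not tested. Cxcl1, the other member measured in Langerhans cells, was 2.38 times (1.35 to 4.20) and was not called. Of its 28 lesional UMIs 1 cell held 26, and without the highest cells the ratio was 0.277 (0.0310 to 1.17).

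Lesional skin against untreated dermis gave higher levels in myeloid cells. In macrophages and monocytes all 5 measured members were called higher, where 9.04% of 7863 genes were: Cxcl3 6.91 times (5.58 to 8.66), Cxcl2 2.77 times (2.61 to 2.94), Cxcl1 1.81 times (1.54 to 2.14), Csf3 12.6 times (4.77 to 47.1) and Csf3r 4.93 times (2.65 to 10.2). Without the highest cell of each library Cxcl1 was 0.88 times and Csf3 3.26 times, and neither was called, while Cxcl3 was 15.3 times. Within cluster 5 (123 lesional cells) Cxcl1 was 0.858 times (0.694 to 1.06), Cxcl2 1.25 times (1.17 to 1.35), Cxcl3 1.69 times (1.29 to 2.22) and Csf3r 4.29 times (2.15 to 9.49), and only Csf3r was called there. Without the highest cells of cluster 5 Cxcl3 was called too (3.28 times, 2.08 to 5.39), and Cxcl2 was 0.977 times. Cluster 0, with 111 lesional cells, held 6004 CPM of Cxcl2. In dendritic cells Cxcl1 (7.58 times, 4.56 to 13.5) and Cxcl2 (3.32 times, 2.91 to 3.80) were called higher and Cxcl3 was not (2.08 times, 1.45 to 3.07), where 8.23% of genes were called higher. For Cxcl3 1 untreated cell held 32 of 38 UMIs, and without the highest cells it was 7.96 times (3.51 to 22.3) and was called. Hspa1a in dendritic cells was 17466 CPM in lesional skin and 3619 in untreated dermis, and its part was not tested. In fibroblasts Cxcl2 (22.0 times, 6.08 to 182) and Cxcl5 (at least 17.2-fold) were called higher, 2 of 4 members where 5.78% of genes were, and Cxcl1 was not (0.908 times, 0.774 to 1.07). Untreated fibroblasts lay mostly in clusters 13 (12 cells) and 27 (10), with 3 in cluster 7, which held 559 lesional fibroblasts. In T cells 0 of 3 members were called, where 11.5% of genes were in either direction, with Cxcl2 at 0.679 times (0.565 to 0.820) and Cxcl3 at 2.66 times (1.30 to 6.33). Without the highest cells Cxcl3 was 4.73 times (1.55 to 23.5) and was called higher, and within cluster 9 Cxcl2 was 0.452 times (0.357 to 0.572) and was called lower.

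The 2 inflamed libraries differed in which cells held the chemokines. In lesional skin macrophages and neutrophils held more Cxcl2 and Cxcl3 per UMI, and fibroblasts held more Cxcl1 and less Cxcl5 than in imiquimod dermis. In neutrophils Cxcl3 was 3.98 times (3.54 to 4.47), Csf3r 2.14 times (1.83 to 2.48) and Cxcl2 1.92 times the imiquimod level (1.87 to 1.97). These were the 3 of 7 members called, where 10.8% of 5725 genes were called higher. Cxcr2 was 1.33 times (1.06 to 1.65), Cxcl1 0.677 times and Csf3 0.784 times, and they were not called. Neutrophils lay in the same cluster in both libraries. In macrophages Cxcl3 (18.5 times, 16.7 to 20.4), Cxcl1 (11.2 times, 9.93 to 12.5), Csf3 (7.31 times, 5.55 to 9.62) and Cxcl2 (2.78 times, 2.71 to 2.85) were called higher and Csf3r was not (1.22 times, 0.994 to 1.5), which makes 4 of 5 where 29.9% of genes were called higher. Csf3 was no longer called without the highest cell of each library (1.54 times), and Cxcl1 was 4.63 times. Within cluster 5 the ratios were 15.6 for Cxcl3, 9.32 for Cxcl1 and 2.76 for Cxcl2. Hspa1a stood at 12335 CPM in lesional macrophages, 4703 in those of imiquimod dermis and 5098 in those of untreated dermis, and its part in these differences was not tested.

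In fibroblasts Cxcl1 was 2.48 times the imiquimod level (2.31 to 2.65). Cxcl5 was 0.213 times (0.202 to 0.225), Cxcl2 0.152 times and Cxcl3 0.155 times, and Cxcr2 (1 UMI against 92) and Csf3r (at least 117-fold) were lower too. Cxcl3 was 0.0469 times without the highest cells. Hspa1a in these fibroblasts was 7116 CPM in lesional skin and 1943 in imiquimod dermis, and Egr1 was 1218 and 166. The part of handling in the fibroblast ratios was not tested. The S100a8 and S100a9 level was 13157 CPM in fibroblasts of imiquimod dermis against 12.3 in those of lesional skin. Without the S100-rich cells the imiquimod values of Cxcl2, Cxcr2 and Csf3r were the lower ones given above, and the part of neutrophil RNA in the 3 ratios was not tested. In all 1 of 7 members was called higher and 5 lower, where 36.3% of genes were called higher and 9.54% lower. Within cluster 7, which held only 20 fibroblasts of imiquimod dermis but 559 of lesional skin, Cxcl1 was 3.12 times (2.31 to 4.31) while Cxcl2 (1.37 times, 0.954 to 2.03) and Cxcl5 (1.06 times, 0.791 to 1.44) were not called. The Cxcl5 of cluster 7 in imiquimod dermis was 47 UMIs. In blood endothelium Cxcl1 (0.437 times, 0.386 to 0.494) and Cxcl2 (0.106 times, 0.0788 to 0.141) were called lower and Cxcl5 (4.87 times, 2.17 to 13.5) higher, while Csf3 was not called (0.676 times, 0.592 to 0.774). The background in that class was 15.2% called higher and 6.58% called lower, and without the highest cells Cxcl1 (0.69 times) and Cxcl5 (2.76 times) were no longer called. Hspa1a there was 10496 CPM in lesional skin and 1625 in imiquimod dermis. In dendritic cells Cxcl1 (7.08 times, 5.56 to 9.07), Cxcl2 (2.68 times, 2.51 to 2.87) and Cxcl3 (2.67 times, 2.12 to 3.36) were called higher, 3 of 4 where 15.8% of genes were, and Cxcl3 was 5.41 times without the highest cells. Hspa1a there was 17466 against 7918 CPM, and its part in both classes was not tested.

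In T cells the order was turned, with Cxcl2 at 0.465 times the imiquimod level (0.417 to 0.517), the 1 of 4 members called, where 6.97% of genes were called lower. Cxcl5 in T cells was 0.292 times and not called, but 0.0864 times (0.00998 to 0.343) and called lower without the highest cells. Hspa1a in T cells was 14648 CPM against 7593, and its part was not tested. Mast cells gave the same direction for Cxcl2, the only member measured (0.137 times, 0.0695 to 0.248), where 7.06% of genes were called lower, and 0.0845 times without the highest cells. In Schwann cells 0 of 5 members were called, where 14.0% of genes were called in either direction. One lesional Schwann cell held 273 of 349 Cxcl2 and 38 of 47 Cxcl1 UMIs. Without the highest cells Cxcl1 (0.305 times, 0.133 to 0.621), Cxcl2 (0.382 times, 0.295 to 0.491) and Csf3r (0 UMIs against 12) were called lower, beside the 12.4% S100 level of imiquimod Schwann cells given above. The median log2 ratio over all measured genes was itself off 0 in these comparisons, at 0.43 in macrophages, 0.53 in fibroblasts, 0.42 in T cells, 0.25 in dendritic cells and -0.15 in neutrophils for lesional skin against imiquimod dermis, and at -0.26, -0.24, -0.30 and -0.06 in macrophages, fibroblasts, T cells and dendritic cells for imiquimod against untreated dermis. In T cells, mast cells and blood endothelium of imiquimod dermis the higher Cxcl2 stood beside S100a8 and S100a9 levels of 1577 to 2387 CPM, and the part of free neutrophil RNA in these comparisons was not tested.

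The mixed sex of the lesional library allowed its cells to be split into those with Y-linked UMIs only and those with Xist only, which must come from at least 1 male and 1 female mouse. Several levels differed widely between them. Cxcl5 in fibroblasts was 288 CPM in 364 Y-linked cells and 23.9 in 163 Xist cells (ratio 12.1, 8.87 to 16.8). Csf3 was 844 against 64.7 CPM in lymphatic endothelium and 407 against 181 in blood endothelium. Cxcl3 in macrophages was 332 against 61.5. These were all higher in Y-linked cells. The reverse held for Cxcl2 in dendritic cells (752 against 2388 CPM) and fibroblasts (144 against 424), Cxcl1 in fibroblasts (590 against 952) and Cxcl1 in pericytes (277 against 3636). The pericyte values came from only 14 Y-linked and 15 Xist cells, and 1 Xist cell gave 370 of the 593 UMIs. Other Xist values also came from few cells with a UMI. For Cxcl2 these were 11 of 37 dendritic cells and 22 of 163 fibroblasts. For Cxcl3 they were 3 of 43 macrophages, and for Csf3 2 of 28 lymphatic endothelial cells. High single cells were not left out here. Cxcl2 in macrophages (3115 against 3403) and Cxcl1 in keratinocytes (63.8 against 59.6) lay close to each other. Sex, the single animals and the place sampled cannot be told apart in this library, and neutrophils could not be split, since 22 were Y-linked, 1 held Xist and 49 held neither.

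**Figure D5:**
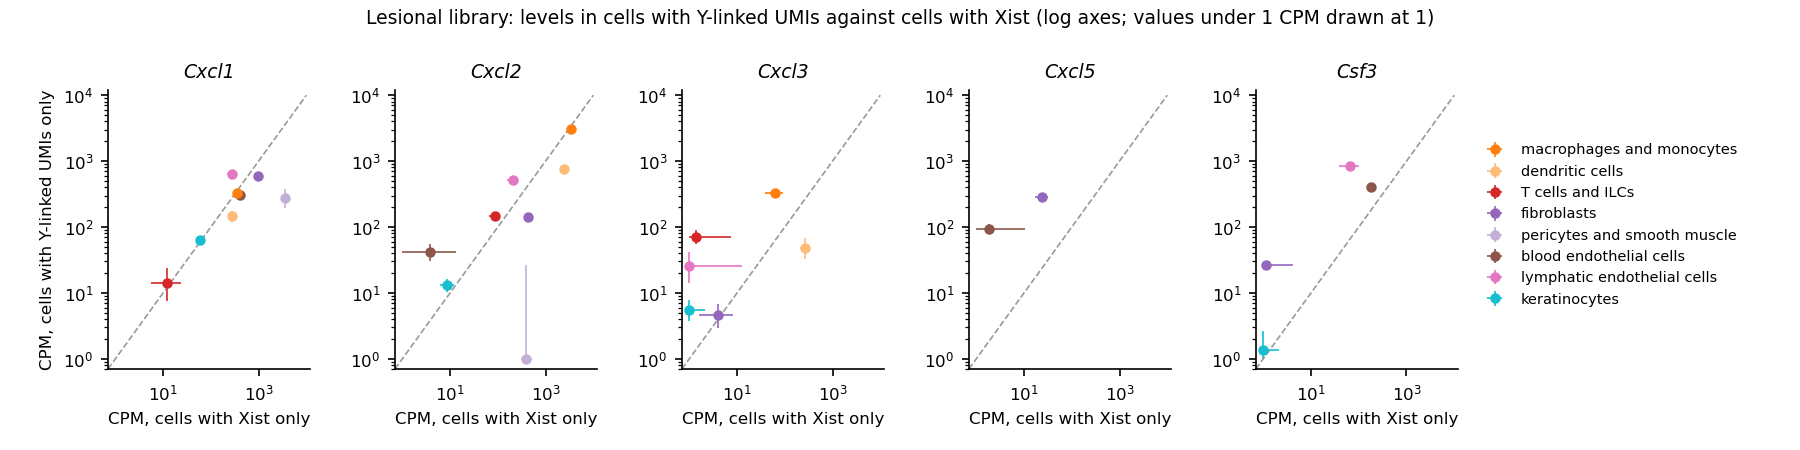
Level of Cxcl1, Cxcl2, Cxcl3, Cxcl5 and Csf3 in classes of lesional skin, in cells with Y-linked UMIs only (vertical, CPM, log axis) against cells with Xist only (horizontal, CPM, log axis), with Poisson 95% intervals, a dashed line of equality and values under 1 CPM drawn at 1. Fibroblast Cxcl5 lies at 288 against 23.9 and fibroblast Cxcl1 at 590 against 952.

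The genes that induce these chemokines were followed in the same comparisons. T cells held the interleukin 17 genes, the upstream cytokines of the pathway. Il17f was 2603 CPM in T cells of imiquimod dermis against 28.8 in untreated dermis (90.3 times, 53.8 to 165) and 242 in lesional skin, and Il17a was 994, 92.6 and 712 CPM in the same order. Of the 11 inducing cytokines, 3 of 7 measured in T cells (Il17f, Il17a and Il1b) were called higher with imiquimod and 1 lower (Tnf), where 3.63% and 10.8% of all genes were, with a median log2 ratio of 1.13 against -0.30 over all genes. In T cells of lesional skin against nonlesional epidermis all 6 measured were called higher, where 17.6% of all genes were, among them Il17a (99.1 times), Il17f (53.9 times), Csf1 (18.8 times) and Osm (3.64 times), with a median of 1.84 against -0.14. These were not the same T cell populations. In nonlesional epidermis 875 of 946 lay in cluster 3, led by Trdc, Cd3g and Cd7, and 9 in cluster 9. In lesional skin 181 of 485 lay in cluster 9, which has Il17f and Il17a among its top genes. No cluster could be compared on its own. In macrophages Il6 (7.70 times) and Il1b (4.22 times) were called higher and Tnf lower (0.519 times) with imiquimod, of 4 measured, where 6.5% of all genes were called higher and 19.0% lower. In lesional against untreated macrophages Il6 (7.70 times), Il1b (4.5 times) and Il1a (4.45 times) were called higher, of 5 measured, where 9.04% of all genes were.

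The 12 genes of transcriptional and mRNA control include Nfkbiz, a cofactor of interleukin 17 responses, Atf3, and the mRNA-binding genes Zc3h12a, Arid5a and Zfp36. With imiquimod 6 of 12 were called lower and 1 higher in T cells, where 10.8% of all genes were called lower. In fibroblasts 9 of 12 were called lower (10.4% of all genes), in dendritic cells 6 of 11 (9.2%) and in macrophages 3 of 11 (Atf3, Rela and Nfkb1), the last beside 19.0% of all genes. With median-of-ratios scaling the numbers called lower were 4, 2, 5 and 1 in the same order, so the fibroblast count in particular depends on the scaling. The median log2 ratio was -0.98 in T cells, -1.21 in fibroblasts, -0.98 in dendritic cells and -0.39 in macrophages, beside all-gene medians of -0.30, -0.24, -0.06 and -0.26. In lesional skin against imiquimod dermis 4 of 11 were called higher in macrophages (Nfkb1 2.55 times and Atf3 2.14 times among them), near the 29.9% of all genes. In dendritic cells 8 of 11 were (15.8% of all genes) and in T cells 6 of 12 (27.8%). With median-of-ratios scaling these were 0, 5 and 3. In lesional against nonlesional keratinocytes 5 of 12 were called higher, led by Nfkb1 (4.43 times), Cebpd (4.17 times) and Cebpb (3.09 times), and 2 lower (Atf3 and Nfkbia), where 28.0% and 11.0% of all genes were, and 3 were called each way with median-of-ratios scaling. In nonlesional against untreated keratinocytes 0 of 12 were called in either direction, where 5.25% of all genes were. Atf3 and Zfp36 are also early response genes that rise when tissue is digested, and the part of handling in these counts was not tested.

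Of the 10 other neutrophil attractants and their receptors, 4 of 10 were called higher in macrophages with imiquimod (Fpr1 at least 9.75-fold, Ltb4r1 13.4 times and Ccr1 2.5 times among them) and 2 lower (Alox5 and C5ar1), where 6.5% and 19.0% of all genes were, with a median log2 ratio of 0.38. In T cells 4 of 7 were called higher (3.63% of all genes), Ccl3 (8.81 times), Ccl4 (7.16 times), Alox5ap (6.61 times) and Ltb4r1 (2.32 times). In fibroblasts 8 of 9 were called higher with imiquimod (4.53% of all genes) and 8 of 9 lower in lesional skin against imiquimod dermis (9.54%), where the list holds neutrophil genes such as Fpr1 and the S100-rich fibroblasts bear on it. In neutrophils of lesional skin against imiquimod dermis 0 of 10 attractants were called, where 21.0% of genes were in either direction, while Nfkb1 (3.44 times), Il36g (3.17 times), Osm (2.53 times) and Il1a (2.52 times) were called higher. Pf4, the chemokine gene that lies between Cxcl5 and Cxcl3, was 9344 CPM in macrophages of untreated dermis, 2630 in imiquimod dermis and 2931 in lesional skin, and its ratio with imiquimod was 0.281. Ackr1, the scavenging receptor that binds these chemokines on venules, was 553 CPM in blood endothelium of imiquimod dermis and 706 in that of lesional skin.

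The genes with levels most like each member over 33 class-by-library units were found among 7807 genes by Pearson correlation of log2(CPM + 5). The units share libraries and depth, so the values are descriptions. For Cxcl2 they were Il1b (r = 0.90), Nlrp3, Clec4d, Ccl3 and Ccr1. For Cxcl3 they were Cd300ld (0.88), Adam8, F10, Clec4d and Cd300lb. For Cxcl1 they were Myof (0.84), Arhgap23, Col4a2, Igfbp4 and Csrp2. For Cxcl5 they were Reg3g (0.85), Saa1, Saa2, Il19 and CR974586.5. Csf3 was most like Scarf1 (0.95), Emcn, Iigp1, Myct1 and Mmrn2, of which all but Iigp1 are endothelial genes. Cxcr2 was most like Acod1 (0.94), Nfe2, Fpr1, Trim30b and Padi4, and Csf3r most like Trem1 (0.98), Cd177, Trem3, Wfdc21 and Fpr1, of which Cd177 and Fpr1 are genes of mature neutrophils.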

How the data were processed

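Single-cell RNA of 5 libraries was analysed from the UMI count matrices deposited by the authors, which hold whole-number counts per gene and barcode without normalization. Per the submitters' processing notes, CASAVA, Cell Ranger and mm10 were used, and the file headers give software version 3.0.2; no source used here says how barcodes were called as cells. Cells with at least 200 genes and under 20% mitochondrial UMIs were kept, and the cells with the highest Scrublet scores were removed at 0.8% per 1000 barcodes (2 to 199 per library). Cells with 10% or more haemoglobin UMIs (17) were set apart. Clustering used scanpy 1.11.5 and leidenalg 0.10.2 (2000 variable genes, 30 components, 15 neighbours, resolution 1.0), without integration and without the members, the listed pathway genes that are no markers, and Xist. Clusters were named from 20 marker lists. Counts were summed by class and library (3020790 to 41258087 UMIs deposited per library). Intervals are exact at 95% (Poisson, Clopper-Pearson, and conditional binomial for ratios, scipy 1.17.1) and cover counting error only. The floor of a class at 0 is 3 counts. Ratio intervals and calls were run on simulated independent Poisson counts, which is the model that the intervals assume. That run cannot show how they behave where 1 cell holds many of the UMIs of a gene. With 1 library per group there are no replicates and no tests. The members and lists were chosen with earlier results of these data known. The text names all 7 members in classes of at least 20 cells (smaller classes only where their size is stated), up to 4 called genes of a pathway list by size, and the 5 most alike genes. Genes of the remaining lists (other ligands and receptors, receptors of inducers, signalling) that are named were chosen after their values were seen. Samples were grouped by their titles. Gene coordinates and 3′ untranslated regions are from the GRCm38 annotation, and promoters from RefSeq.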

Additional observations from a re-analysis of the deposited data

How the results depend on the processing

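No paired analysis was possible because each group is 1 library and shares no replicate with another. Where a member had 0 UMIs, depth limits what could be seen, as for Cxcl5 in untreated dermis. The alternatives with cells rich in S100a8 and S100a9 left out, with Y-linked-only or Xist-only cells, without the highest cell, and within 1 shared cluster (also without the highest cell) were chosen after seeing the data. Of 49 called ratios of members, 49 were still called with no filter on low counts, 48 with median-of-ratios scaling (0 of which turned direction), 47 with no doublet removal, 47 without S100-rich cells, 46 each with all barcodes, with the mean over cells of CPM per cell and with members among the clustering genes, 45 at resolution 2.0, 40 with a stricter cell filter (at least 500 genes, under 10% mitochondrial), 40 without the highest cell, 35 of 48 with cells thinned to 2000 UMIs, 32 of 36 in Y-linked-only cells, 25 of 34 in Xist-only cells and 25 of 36 within a shared cluster. Other than where stated, the cause was not tested.

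Members called in T cells, imiquimod against untreated dermis, went from 2 to 4 with median-of-ratios scaling and 4 with the mean per cell, to 0 with thinning, and to 1 each with the stricter filter, no doublet removal, members among the clustering genes, resolution 2.0 and without the highest cell. In macrophages of the same comparison they went from 3 to 5 with no filter. In keratinocytes, nonlesional against untreated, they went from 1 to 2 with the mean per cell and to 0 with the stricter filter and within a shared cluster. In keratinocytes, lesional against nonlesional, they went from 0 to 1 with thinning and within a shared cluster, to 2 with the mean per cell and to 3 with no filter. For lesional skin against imiquimod dermis they went from 4 to 2 in macrophages for Xist-only cells and from 6 to 1 in fibroblasts within a shared cluster.

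The neutrophil share of imiquimod UMIs of Cxcr2, Csf3r and Cxcl2 was 70.9%, 57.1% and 56.8%, and became 62.7%, 47.9% and 47.5% with the stricter filter, 57.9%, 43.9% and 44.2% with no doublet removal, 78.2%, 62.8% and 61.9% with members among the clustering genes, 76.9%, 62.3% and 60.9% at resolution 2.0 and 78.9%, 62.4% and 61.4% without S100-rich cells, and, for Cxcr2 and Cxcl2, 73.5% and 57.6% with all barcodes. The fibroblast share of imiquimod Cxcl1 was 38.1% with members among the clustering genes and at resolution 2.0. The keratinocyte share of lesional Cxcl1 was 7.48% with the stricter filter and 7.37% in Y-linked-only cells, and the fibroblast share of lesional Cxcl5 was 91.3% in Xist-only cells.

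These log2 ratios turned direction. Cxcl3 in macrophages with imiquimod was 0.25 with thinning and 0.10 without the highest cell. In lesional against untreated macrophages, Cxcl1 was -0.71 with the stricter filter, -0.53 with all barcodes, -0.18 without the highest cell and -0.21 within cluster 5, Csf3 was -0.37 in Y-linked-only and -0.089 in Xist-only cells, and Cxcl3 was -0.20 in Xist-only cells. In lesional skin against imiquimod dermis, macrophage Csf3 was -0.055 with the stricter filter, -0.72 in Y-linked-only and -0.44 in Xist-only cells, blood endothelial Cxcl5 was -1.22 in Xist-only cells, and within cluster 7 fibroblast Cxcl2, Cxcl5 and Cxcr2 were 0.44, 0.078 and 0.036.

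Median-of-ratios scaling moved the percent of called genes that were higher by over 10 points. With imiquimod against untreated dermis it went from 25.2% to 64.6% in T cells, 41.5% to 55.6% in dendritic cells, 30.3% to 56.6% in fibroblasts and 25.5% to 59.2% in macrophages. For lesional skin against imiquimod dermis it went from 83.7% to 33.7% in macrophages, 79.2% to 45.5% in fibroblasts, 80.0% to 43.4% in T cells, 76.5% to 39.1% in dendritic cells, 69.9% to 44.3% in blood endothelium, 67.9% to 30.4% in Schwann cells and 51.5% to 38.5% in neutrophils. Against nonlesional epidermis it went from 71.9% to 49.8% in keratinocytes, 64.1% to 47.8% in Langerhans cells and 49.9% to 60.2% in fibroblasts, and against untreated dermis from 64.4% to 47.5% in dendritic cells and 62.2% to 51.9% in macrophages. No value could be given for lesional neutrophils in Xist-only cells (1 cell), Langerhans Cxcl2 in Y-linked-only cells, mast cell Cxcl2 with thinning, fibroblasts within a shared cluster other than against imiquimod dermis, or T cells within a shared cluster against nonlesional epidermis.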
